A study of Mus musculus with 12 samples.

Results

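The genes described here were 39 glycolysis, lactate, pyruvate, and pentose phosphate genes, of 26608 genes listed in the count files. They were chosen by symbol, as glucose and lactate transporters, the enzymes between glucose and lactate, the pyruvate dehydrogenase complex and its kinases, 4 enzymes of the pentose phosphate pathway, 2 phosphoglucomutases, and the hypoxia factor *Hif1a* with 2 genes known as its targets. All 39 were found, and all 39 passed the filter on low counts, the scarcest (*Eno2*) with 25 reads in its lowest library. RNA-seq was made from CD4+ T cells negative for the YFP that marks *Foxp3* expression, sorted from the spleen together with cervical and inguinal lymph nodes of mice aged 14 weeks. WT mice carried Foxp3-Cre and its YFP with intact *Tet2* and *Tet3*, and DKO mice carried the same Cre with floxed *Tet2* and *Tet3*. Each of the 3 groups (WT, DKO-moderate, DKO-severe) had 4 libraries. The study split DKO mice into moderate and severe by the number of leukocytes in those organs, so that the severity groups were set by the state of the mouse rather than by a treatment. The Cre is driven by *Foxp3*, so that a DKO library could hold cells that formerly expressed *Foxp3* and lost *Tet2* and *Tet3* next to conventional T cells in which neither gene was deleted. The study also describes this Cre as leaky, so that deletion in cells outside the Treg lineage was possible.

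Glycolysis takes up glucose, traps it as glucose 6-phosphate, and splits it into pyruvate. Pyruvate is either reduced to lactate and exported or passed to mitochondria through the pyruvate dehydrogenase complex, which pyruvate dehydrogenase kinases switch off. The pentose phosphate pathway branches off at glucose 6-phosphate and makes NADPH and ribose for nucleotides. Resting naive T cells run mainly on mitochondrial respiration, and activated T cells are known for high aerobic glycolysis, driven among others by the transcription factors MYC and HIF-1.

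The libraries held 29254260 to 42133536 reads on genes. Of the genes behind the sort, *Foxp3* was at 0.13 to 3.1 CPM (counts scaled to library size with TMM factors) over all 12 libraries. It was lower in DKO-severe than in WT (log2 fold change -2.1 ± 0.68, edgeR adjusted p = 0.0206). No FOXP3-positive library was among the 12 for comparison. *Cd4* was at 864 to 1166 CPM in WT, 1225 to 1368 CPM in DKO-moderate, and 938 to 1325 CPM in DKO-severe. *Tet3* was at 167 to 210 CPM in WT, 90.3 to 185 CPM in DKO-moderate, and 87.8 to 102 CPM in DKO-severe (DKO-severe against WT, log2 fold change -1.03 ± 0.19 (SE), edgeR adjusted p = 0.00085). *Tet2* did not differ past the threshold (log2 fold change 0.22 ± 0.15, edgeR adjusted p = 0.233), and reads over a whole gene do not isolate the floxed exons. Other cell types and states moved with the groups. The summed level of 12 neutrophil genes was 12.2 to 18.7 CPM in WT and 14.8 to 36.6 CPM in DKO-moderate, and in DKO-severe it was 2370 and 888 CPM in replicates 1 and 2 but 46.7 and 28 CPM in replicates 3 and 4. The 9 B cell genes summed to 245 CPM in WT replicate 3, against 6.81 to 15.2 CPM in the other WT libraries, and to 68.1 to 408 CPM in DKO-severe. The 10 monocyte and macrophage genes summed to 22.2 to 227 CPM in WT and 149 to 587 CPM in DKO-severe (4 of 10 higher), and the plasma cell genes to 61.1 to 162 and 200 to 366 CPM (3 of 7 tested higher). In DKO-severe replicates 3 and 4 these sums were 235 and 149 CPM and 200 and 216 CPM. Of 8 erythroid genes tested 4 rose, and of 7 T cell genes tested 3 fell and 1 rose. Of 8 naive T cell genes 7 fell, with sums of 4700 to 5420 CPM in WT and 1760 to 2380 CPM in DKO-severe. Of 12 proliferation genes 12 rose, with sums of 346 to 412 CPM in WT and 883 to 1960 CPM in DKO-severe. Over all genes tested, 26.6% were called higher and 25.9% lower in DKO-severe against WT. The part of these lists in the results on single genes was not tested beyond the values given with the libraries left out or with terms for the lists. *Xist* had more reads than the Y-linked *Ddx3y* in WT replicate 2, DKO-moderate replicates 2 and 4, and DKO-severe replicate 3, and the labels give no sex. The ranges of DKO-moderate replicates 2 and 4 and of replicates 1 and 3 did not overlap in 51.6% of all genes tested, where 4 distinct values always separate under 1 of the 3 ways to pair them. The libraries are bulk, so a change in the number of cells of a type and a change in RNA per cell cannot be told apart.

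HIF-1 binds DNA at the letters ACGTG or GCGTG, the core of the hypoxia response element, and MYC binds CACGTG, which contains ACGTG on both strands. RefSeq promoters of build GRCm38.p6 (the 250 bases before each listed start) were available for 38 of the 39 genes, the exception being *Slc2a3*, and were searched on both strands. At least 1 ACGTG or GCGTG was present in 33 of 38 genes (86.8%), against 47.1% of 17492 protein-coding genes, ACGTG alone in 18 of 38 against 3491 of 17492, and CACGTG in 18.4% against 7.6%. A gene counted if any of its listed starts held a match. Per promoter, 41 of 52 (78.8%) held ACGTG or GCGTG, against 38.6% of all 32851 promoters. Neither base composition nor the number of starts per gene was matched, and the shares are a description with no test. Of the genes that rose in DKO-severe, 17 of 19 held ACGTG or GCGTG, and so did 7 of the 8 that fell and had a promoter and 9 of the 11 that passed in neither direction. ACGTG was present in 11 of the 19, 3 of the 8, and 4 of the 11, and GCGTG in 10, 6, and 8. The promoters of 5 genes that rose and of 2 that fell read as follows, 5′ to 3′, with each match in capitals (CACGT and CACGC are the same letters on the other strand). Numbers count back from the start site, with the last base shown at -1 and each match given by its leftmost base.
Hk2, chr6:82774455-82774704, minus strand: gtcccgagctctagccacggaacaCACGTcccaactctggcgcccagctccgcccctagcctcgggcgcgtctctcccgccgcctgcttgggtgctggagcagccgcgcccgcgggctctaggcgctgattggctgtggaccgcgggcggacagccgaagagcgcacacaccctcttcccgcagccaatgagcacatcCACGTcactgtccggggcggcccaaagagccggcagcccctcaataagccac
Slc16a3, chr11:120948817-120949066, plus strand: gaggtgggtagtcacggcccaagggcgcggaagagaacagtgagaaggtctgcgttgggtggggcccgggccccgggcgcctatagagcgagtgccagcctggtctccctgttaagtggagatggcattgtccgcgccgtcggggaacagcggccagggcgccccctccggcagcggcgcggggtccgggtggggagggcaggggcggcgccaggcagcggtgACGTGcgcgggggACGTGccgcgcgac
Ldha, chr7:46845554-46845803, plus strand: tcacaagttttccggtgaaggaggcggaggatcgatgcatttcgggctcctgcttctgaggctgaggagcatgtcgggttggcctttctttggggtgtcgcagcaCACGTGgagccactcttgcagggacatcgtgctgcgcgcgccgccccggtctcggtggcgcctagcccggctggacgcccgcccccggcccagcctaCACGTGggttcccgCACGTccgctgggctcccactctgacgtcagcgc
Pgk1, chrX:106186850-106187099, plus strand: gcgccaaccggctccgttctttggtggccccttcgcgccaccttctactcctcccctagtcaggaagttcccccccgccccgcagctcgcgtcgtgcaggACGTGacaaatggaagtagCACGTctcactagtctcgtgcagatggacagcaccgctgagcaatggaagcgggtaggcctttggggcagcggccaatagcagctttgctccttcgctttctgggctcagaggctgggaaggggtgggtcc
Tpi1, chr6:124814159-124814408, minus strand: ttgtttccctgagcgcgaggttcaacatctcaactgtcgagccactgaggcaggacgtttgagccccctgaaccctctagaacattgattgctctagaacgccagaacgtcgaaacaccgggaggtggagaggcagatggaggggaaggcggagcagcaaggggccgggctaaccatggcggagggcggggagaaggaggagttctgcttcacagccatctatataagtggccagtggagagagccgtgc
Pdk1, chr2:71872974-71873223, plus strand: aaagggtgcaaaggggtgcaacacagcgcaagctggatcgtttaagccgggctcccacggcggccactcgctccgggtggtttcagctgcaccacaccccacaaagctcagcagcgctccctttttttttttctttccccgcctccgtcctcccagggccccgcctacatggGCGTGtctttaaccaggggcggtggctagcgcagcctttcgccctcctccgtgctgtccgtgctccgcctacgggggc
Ldhb, chr6:142507958-142508207, minus strand: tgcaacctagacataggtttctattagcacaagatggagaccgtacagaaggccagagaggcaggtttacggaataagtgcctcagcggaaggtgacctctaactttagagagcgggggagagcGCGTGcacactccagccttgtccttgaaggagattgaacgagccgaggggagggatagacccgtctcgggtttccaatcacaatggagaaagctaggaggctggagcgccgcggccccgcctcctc
*Hk2* held ACGTG at -226 and -52, *Slc16a3* at -27 and -14, and *Pgk1* at -150 and -131. *Ldha* held 5 matches of ACGTG at the start shown, 4 of them the 2 strands of 2 CACGTG sites, and 1 GCGTG at a start farther downstream. *Pdk1* and *Ldhb*, which fell, held 1 GCGTG each. *Tpi1*, which had the largest fold change of the 10 genes of lower glycolysis, held neither. The GENCODE gene models of *Ldha*, *Slc16a3*, and *Tpi1* reach past the RefSeq start into the sequence shown.

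To ask how central carbon genes differed in DKO-severe, it was compared with WT, from which it differs in genotype as well as in disease. A total of 28 of 39 genes passed edgeR's quasi-likelihood test (adjusted p under 0.05), a share to be read against 52.6% of all 16035 genes tested. They were split into 19 higher, where 26.6% of all genes were called, and 9 lower, where 25.9% of all genes were called. The median log2 fold change of the 39 genes was 0.32, and that of all genes tested was -0.005. The 4 DKO-severe libraries all lay above the 4 WT libraries in 19 genes and below them in 9, and this held in either direction for 51.9% of all genes. A change of at least 1 on the log2 scale was called in 12 genes, near the share of 27.3% of all genes, 9 higher (18.6% of all genes, *Slc16a3*, *Hk2*, *Hif1a*, *Tpi1*, *Pgam1*, *Eno2*, *Pdk3*, *G6pdx*, and *Gapdh*) and 3 lower (8.70% of all genes, *Pdk1*, *Ldhb*, and *Eno3*). The pathway did not move as a block. In 7 of 8 isozyme families 1 gene or more rose while another fell or did not pass. Of the 2 glucose transporter genes among the 39, none rose. In DKO-moderate against WT, 16 of 39 genes passed, against 17.0% of all genes, 12 higher (12.3% of all genes) and 4 lower (4.78% of all genes). Ranges did not overlap in 18 of the 39, 13 above and 5 below WT, against 24.8% of all genes. Of the 16 calls, those of *Ldha* and *Pdha1* were each lost in 14 of 26 alternatives, that of *G6pdx* in 7, that of *Gapdh* in 6, and the others in at most 1. Both comparisons share the WT libraries. The order of the 3 group means was WT, DKO-moderate, DKO-severe in 18 genes, the reverse in 11, and neither in 10. Without DKO-severe replicates 1 and 2, the libraries high in neutrophil genes, 25 of the 28 calls against WT were kept and none was added, and 42.3% of all genes were called. With terms for the neutrophil and B cell lists in the model, 14 of the 28 were kept and 1 was added (*Slc2a1*, lower), and the share of all genes called fell to 19.5%. The 14 calls not kept with these terms were those of *Pfkl*, *Pfkp*, *Pfkfb3*, *Aldoa*, *Eno2*, *Ldha*, *Pdha1*, *Pdhb*, *Pgd*, *Tkt*, *Pgm1*, *Pgm2*, *Egln3*, and *Bnip3*. Each call of these genes in DKO-severe against WT therefore holds without the terms only. None of the 28 called genes changed direction with the terms, and the levels and ranges given do not depend on them. The choice of scaling moved the split. Scaling by library size alone put the median of all genes at 0.18 in DKO-severe against WT. It gave 24 higher and 5 lower genes of the 39 (51.2% of all genes called, 66.5% of these higher). DESeq2's size factors gave 23 higher and 7 lower (51.4% of all genes called, 57.7% of these higher).

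**Figure D1:**
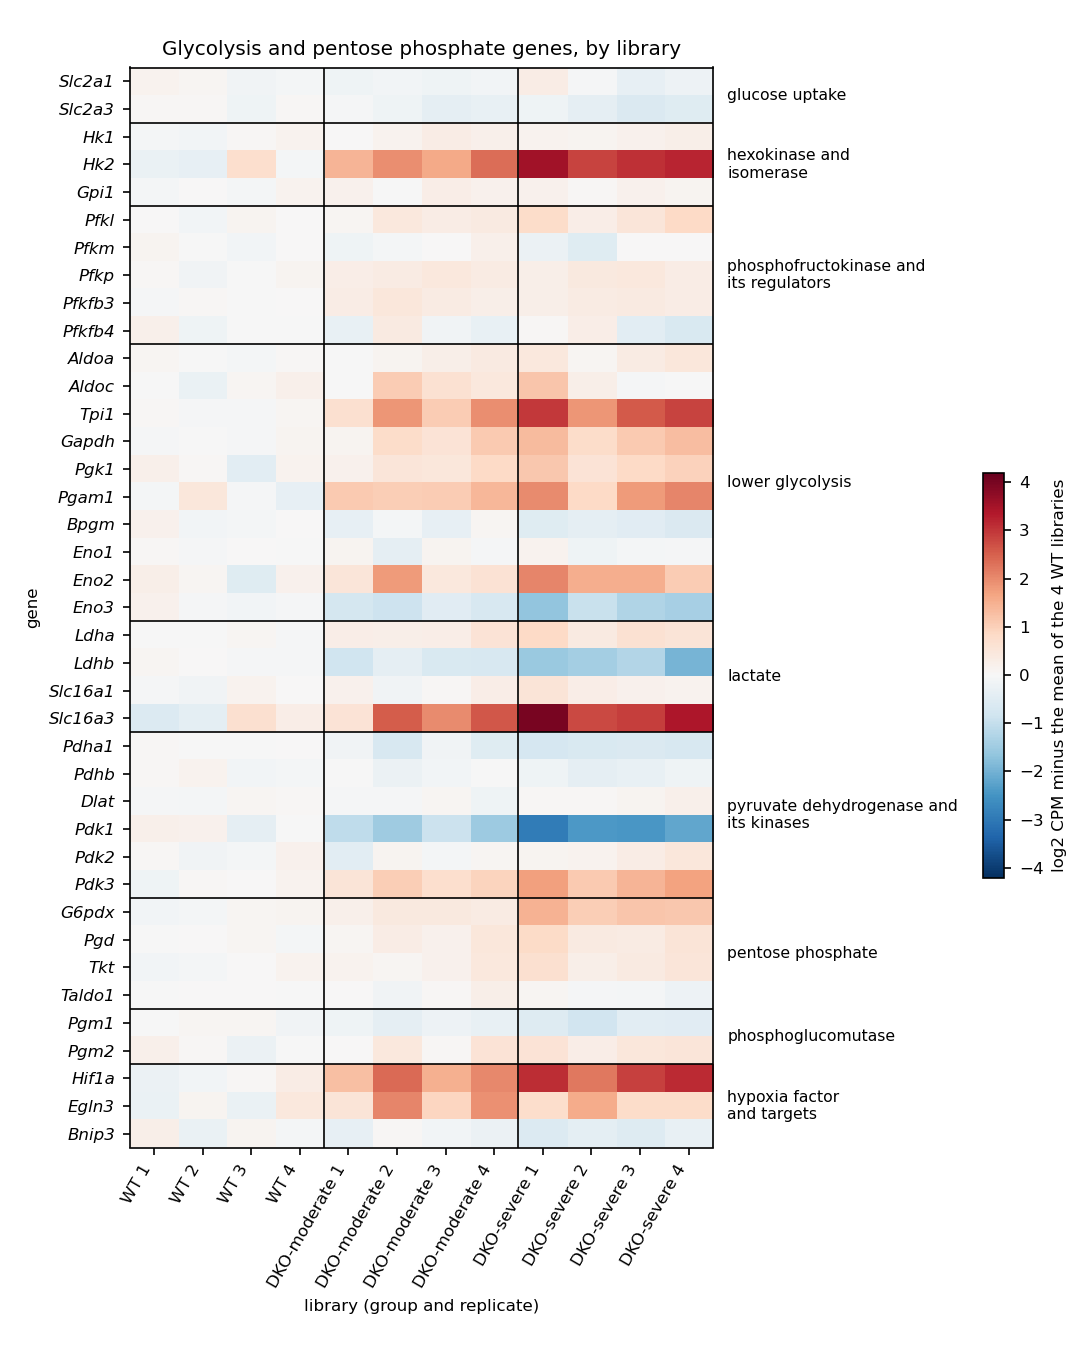
Log2 CPM of each of the 39 genes in each of the 12 libraries, minus the mean of the 4 WT libraries, in rows ordered by role. Red is higher and blue lower than WT; *Hk2*, *Tpi1*, *Slc16a3*, and *Hif1a* are red in all DKO-severe libraries, *Pdk1*, *Ldhb*, and *Eno3* are blue, and DKO-moderate replicates 2 and 4 are deeper in color than replicates 1 and 3 for *Hk2*, *Tpi1*, *Slc16a3*, *Hif1a*, and *Pdk1*.

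*Slc2a1* and *Slc2a3*, the glucose transporter genes of the set, were not called higher in DKO-severe. Uptake of glucose itself was not measured. *Slc2a1* had CPM values of 59.3, 56, 47.5, and 49.8 (WT), of 46.2, 48.5, 46.9, and 49 (DKO-moderate), and of 66.4, 50.8, 41.4, and 45.2 (DKO-severe). *Slc2a1* encodes GLUT1, the glucose transporter induced in activated T cells, and its DKO-severe libraries overlapped those of WT (log2 fold change -0.06 ± 0.13, edgeR adjusted p = 0.707). The DKO-severe library with the highest level, replicate 1, was also the one highest in neutrophil genes, and without replicates 1 and 2 the log2 fold change was -0.26 (edgeR adjusted p = 0.0745). *Slc2a1* was called lower in 2 of 26 alternatives, with terms for the neutrophil and B cell lists (log2 fold change -0.57, edgeR adjusted p = 0.0213) and without DKO-severe replicates 1 and 2 and WT replicate 3 (log2 fold change -0.34, edgeR adjusted p = 0.026). The high-affinity transporter gene *Slc2a3* (GLUT3) had CPM values of 65.8, 66.1, 56.4, and 66.4 (WT), of 61.4, 56.5, 48.9, and 51 (DKO-moderate), and of 55.8, 49.4, 41.3, and 44.4 (DKO-severe). All 4 DKO-severe libraries lay below all 4 WT libraries, and *Slc2a3* fell (log2 fold change -0.42 ± 0.11, edgeR adjusted p = 0.0064), a call that scaling by library size alone did not keep (log2 fold change -0.23, edgeR adjusted p = 0.0903). Neither *Slc2a1* nor *Slc2a3* passed in DKO-moderate. Of the *Slc2a* genes in the list of other glycolysis genes below, *Slc2a6* rose in DKO-severe. *Slc2a8* also rose (log2 fold change 0.51 ± 0.19, edgeR adjusted p = 0.0377), and *Slc2a9* did not pass (log2 fold change -0.21 ± 0.12, edgeR adjusted p = 0.156). *Slc2a8* and *Slc2a9* are named here after their values were seen.

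For the phosphorylation of glucose, 1 of 2 hexokinase genes of the set rose. *Hk2* had CPM values of 1.87, 1.77, 3.77, and 2.13 (WT), of 6.17, 9.02, 6.91, and 11.9 (DKO-moderate), and of 27.1, 16.6, 19.3, and 21.3 (DKO-severe). *Hk2* (chr6:82725025-82774454, minus strand) encodes the inducible hexokinase that can bind mitochondria. The 3 groups did not overlap, and *Hk2* was 8.82-fold higher in DKO-severe than in WT (log2 fold change 3.14 ± 0.30, edgeR adjusted p = 1.05e-05) and 3.56-fold higher in DKO-moderate (log2 fold change 1.83 ± 0.28, edgeR adjusted p = 0.00135). The WT library with the highest *Hk2*, replicate 3, was also the WT library highest in B cell genes (above) and in 10 monocyte and macrophage genes, which summed to 227 CPM there and to 22.2 to 45.6 CPM in the other WT libraries. Without DKO-severe replicates 1 and 2 the log2 fold change in DKO-severe was 3.12. The constitutive *Hk1* had CPM values of 177, 170, 190, and 207 (WT), of 190, 206, 228, and 215 (DKO-moderate), and of 204, 200, 210, and 220 (DKO-severe). Here the groups overlapped, and neither comparison with WT passed (DKO-severe, log2 fold change 0.16 ± 0.08, edgeR adjusted p = 0.115). *Gpi1*, which turns glucose 6-phosphate into fructose 6-phosphate, was likewise at 441 ± 34.8 CPM (mean ± SD, n = 4) in WT and 481 ± 24.6 CPM in DKO-severe (edgeR adjusted p = 0.224).

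Phosphofructokinase commits the sugar to glycolysis, and its 3 genes differed in modest steps. *Pfkl* had CPM values of 71.7, 65.9, 76.7, and 71.5 (WT), of 76.2, 96.7, 89.6, and 93.1 (DKO-moderate), and of 122, 85.8, 101, and 126 (DKO-severe). *Pfkl*, the liver type, lay above WT in all 4 DKO-severe libraries (log2 fold change 0.60 ± 0.12, edgeR adjusted p = 0.00131). The platelet type *Pfkp* had CPM values of 143, 124, 134, and 147 (WT), of 166, 175, 184, and 172 (DKO-moderate), and of 164, 181, 186, and 171 (DKO-severe). It rose by a similar amount in both DKO groups (log2 fold change 0.36 ± 0.08 in DKO-severe and 0.35 ± 0.08 in DKO-moderate, edgeR adjusted p = 0.00187 and 0.0085). The muscle type *Pfkm* had CPM values of 23, 21.1, 19.8, and 21.6 (WT), of 18.7, 20.2, 21.6, and 24.7 (DKO-moderate), and of 18.2, 15.1, 21.5, and 21.7 (DKO-severe), and the groups overlapped (edgeR adjusted p = 0.312 in DKO-severe). *Pfkfb3* makes fructose 2,6-bisphosphate, the activator of phosphofructokinase. It had CPM values of 70.1, 75.6, 70.9, and 72.4 (WT), of 89.3, 100, 91.9, and 85.9 (DKO-moderate), and of 85.7, 91.1, 94.5, and 89.4 (DKO-severe). All 8 DKO libraries lay above all 4 WT libraries (log2 fold change 0.32 ± 0.07 in DKO-severe, edgeR adjusted p = 0.00166). Its relative *Pfkfb4* was at 12.4 ± 1.38 CPM in WT and 11.2 ± 3.26 CPM in DKO-severe and did not pass (edgeR adjusted p = 0.58).

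In lower glycolysis, 6 of 10 genes rose in DKO-severe, 2 fell, and 2 did not pass. *Tpi1* had CPM values of 53.7, 50.8, 50.2, and 55.1 (WT), of 84.2, 191, 110, and 202 (DKO-moderate), and of 410, 191, 315, and 374 (DKO-severe). *Tpi1* (chr6:124810586-124814296, minus strand) encodes triosephosphate isomerase, which interconverts the 3-carbon products of aldolase. Its 4 WT libraries were close together, and all 8 DKO libraries lay above them. *Tpi1* was 6.14-fold higher in DKO-severe (log2 fold change 2.62 ± 0.29, edgeR adjusted p = 3.02e-05) and 2.8-fold higher in DKO-moderate (log2 fold change 1.48 ± 0.28, edgeR adjusted p = 0.00457). The phosphoglycerate mutase gene *Pgam1* had CPM values of 22.3, 33.4, 23.2, and 18.5 (WT), of 51.6, 49.2, 50.2, and 63.2 (DKO-moderate), and of 94.8, 42.7, 82.1, and 99.4 (DKO-severe). It rose in both DKO groups (log2 fold change 1.71 ± 0.25 in DKO-severe, edgeR adjusted p = 0.000149), with DKO-severe replicate 2 above WT but below the 4 DKO-moderate libraries. *Gapdh*, which makes the NADH of glycolysis and is often used as a reference gene, ranged over 628 to 707 CPM in WT, 710 to 1394 CPM in DKO-moderate, and 1120 to 1625 CPM in DKO-severe (log2 fold change 1.13 ± 0.18, edgeR adjusted p = 0.000273). The level of *Gapdh* was therefore not constant between these groups. *Pgk1*, the ATP-yielding phosphoglycerate kinase, ranged over 128 to 200 CPM in WT and 255 to 374 CPM in DKO-severe (log2 fold change 0.87 ± 0.17, edgeR adjusted p = 0.00118). The main aldolase gene *Aldoa* rose less, from 460 ± 23.5 to 586 ± 69.5 CPM (log2 fold change 0.35 ± 0.11, edgeR adjusted p = 0.0173). *Aldoc* was at 2.32 to 3.31 CPM in WT and 2.74 to 6.39 CPM in DKO-severe with overlapping ranges (edgeR adjusted p = 0.284).

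The enolases, which make phosphoenolpyruvate, split 3 ways. *Eno1* had CPM values of 771, 712, 747, and 743 (WT), of 796, 568, 799, and 724 (DKO-moderate), and of 818, 653, 699, and 722 (DKO-severe). The ubiquitous *Eno1* did not pass the test (log2 fold change -0.04 ± 0.11 in DKO-severe, edgeR adjusted p = 0.777). The muscle enolase *Eno3* had CPM values of 15.5, 13.3, 12.7, and 13.1 (WT), of 8.08, 7.5, 9.69, and 8.61 (DKO-moderate), and of 4.28, 7.03, 5.69, and 5.19 (DKO-severe). *Eno3* fell in both DKO groups, with no overlap between any 2 groups (log2 fold change -1.30 ± 0.16 in DKO-severe and -0.69 ± 0.16 in DKO-moderate, edgeR adjusted p = 5.85e-05 and 0.0128). The neuronal enolase *Eno2* had CPM values of 1.26, 1.13, 0.719, and 1.2 (WT), of 1.54, 3.75, 1.44, and 1.64 (DKO-moderate), and of 4.51, 3.17, 3.17, and 2.27 (DKO-severe). *Eno2* rose in DKO-severe from a low base (log2 fold change 1.60 ± 0.37, edgeR adjusted p = 0.00315), and in DKO-moderate replicate 2 stood above the others (edgeR adjusted p = 0.0912). *Bpgm*, which makes 2,3-bisphosphoglycerate, fell in DKO-severe, from 33.2 ± 2.84 to 23.5 ± 1.5 CPM (log2 fold change -0.50 ± 0.11, edgeR adjusted p = 0.00249), and scaling by library size alone did not keep this call (edgeR adjusted p = 0.0578). Several of these genes share sequence with processed copies, and reads with more than 1 position were not kept by the authors. Shared sequence was searched in windows of 75 bases, shorter than the study's paired reads, so it can overstate the reads left out. Of all windows of 75 bases in the longest annotated transcript, 67.5% occurred in transcripts of other genes for *Pgk1*, 65.44% for *Eno1*, 40.62% for *Pgam1*, and 22.77% for *Gapdh*, so that their levels are uncertain, while *Tpi1* (2.48%), *Hk2*, *Eno2*, and *Eno3* (none) were nearly free of such windows.

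**Figure D2:**
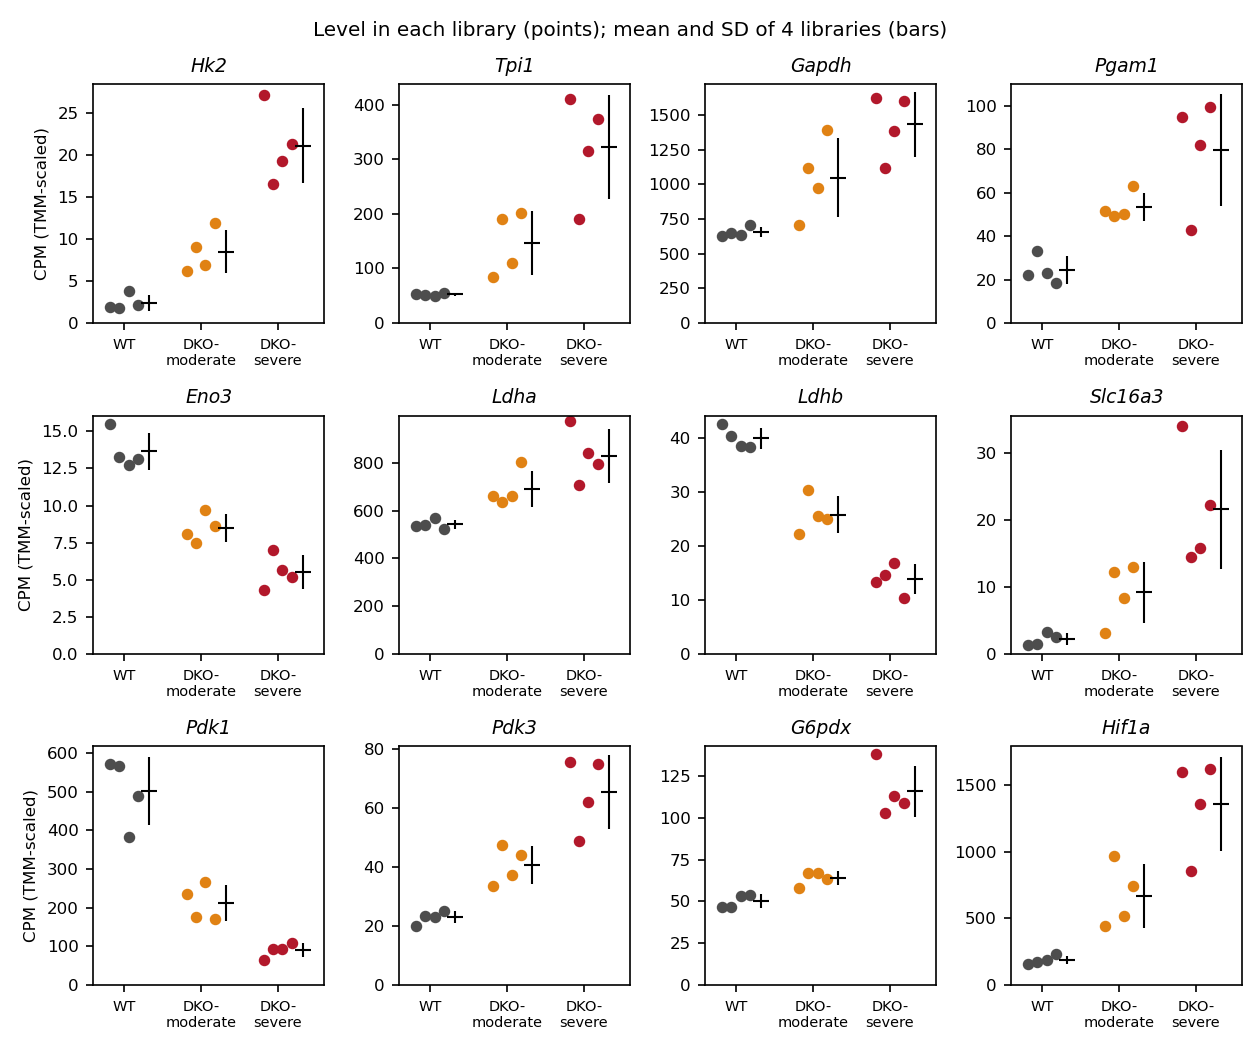
CPM (TMM-scaled, linear axis from 0) of 12 of the genes in each library, with points for WT (gray), DKO-moderate (orange), and DKO-severe (red) and a bar at the mean ± SD of 4 libraries. The DKO-severe points lie above all WT points for *Hk2*, *Tpi1*, *Gapdh*, *Pgam1*, *Ldha*, *Slc16a3*, *Pdk3*, *G6pdx*, and *Hif1a* and below them for *Eno3*, *Ldhb*, and *Pdk1*.

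Lactate genes moved apart. WT replicates 1 to 4 held *Ldha* at 538, 542, 570, and 523 CPM, DKO-moderate replicates at 660, 637, 661, and 803 CPM, and DKO-severe replicates at 976, 708, 840, and 794 CPM. *Ldha* encodes the M subunit of lactate dehydrogenase, which favors lactate production, and all DKO libraries lay above WT (log2 fold change 0.61 ± 0.11 in DKO-severe, edgeR adjusted p = 0.000511). *Ldhb*, the H subunit, which favors the return of lactate to pyruvate, had CPM values of 42.5, 40.3, 38.4, and 38.3 (WT), of 22.2, 30.4, 25.6, and 25 (DKO-moderate), and of 13.4, 14.7, 16.9, and 10.3 (DKO-severe). The 3 groups did not overlap, and *Ldhb* was 2.89-fold lower in DKO-severe (log2 fold change -1.53 ± 0.14, edgeR adjusted p = 1.04e-05) and 1.55-fold lower in DKO-moderate (log2 fold change -0.63 ± 0.14, edgeR adjusted p = 0.01), 16.75% of its windows being shared with a copy. The lactate exporter gene *Slc16a3* (MCT4; chr11:120948480-120960868, plus strand) had CPM values of 1.38, 1.55, 3.36, and 2.54 (WT), of 3.11, 12.3, 8.4, and 13 (DKO-moderate), and of 34, 14.5, 15.9, and 22.2 (DKO-severe). It was 9.76-fold higher in DKO-severe (log2 fold change 3.29 ± 0.47, edgeR adjusted p = 0.000143), the highest fold change of the 39 genes. DKO-moderate replicate 1, at 3.11 CPM, lay within the WT range, and the other 3 lay above it (log2 fold change 2.05 ± 0.45, edgeR adjusted p = 0.00955). The call held without DKO-severe replicates 1 and 2 (log2 fold change 3.14, edgeR adjusted p = 0.000717). The other monocarboxylate transporter gene, *Slc16a1* (MCT1), had CPM values of 27.7, 25.9, 31.5, and 28.8 (WT), of 32.3, 25.7, 29.6, and 34.6 (DKO-moderate), and of 41.1, 34.3, 32.4, and 31.3 (DKO-severe). Its ranges overlapped between WT and DKO-severe, and it just missed the threshold (log2 fold change 0.29 ± 0.12, edgeR adjusted p = 0.0512).

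At the step from pyruvate into mitochondria, 1 kinase gene fell and another rose. WT replicates 1 to 4 held *Pdk1* at 571, 568, 384, and 490 CPM, DKO-moderate replicates at 235, 176, 266, and 171 CPM, and DKO-severe replicates at 65.5, 93.7, 92.2, and 108 CPM. *Pdk1* (chr2:71873224-71903858, plus strand) encodes the pyruvate dehydrogenase kinase best known as a HIF-1 target. It was 5.59-fold lower in DKO-severe (log2 fold change -2.48 ± 0.20, edgeR adjusted p = 5.34e-06) and 2.37-fold lower in DKO-moderate (log2 fold change -1.25 ± 0.19, edgeR adjusted p = 0.00121), with no overlap between groups. *Pdk3* had CPM values of 20.2, 23.6, 23.1, and 25.3 (WT), of 33.5, 47.6, 37.4, and 44.3 (DKO-moderate), and of 75.7, 49, 62.2, and 75 (DKO-severe). *Pdk3* also gave 3 groups without overlap, in the opposite order (log2 fold change 1.51 ± 0.15 in DKO-severe and 0.82 ± 0.15 in DKO-moderate, edgeR adjusted p = 1.48e-05 and 0.0035). WT replicates 1 to 4 held *Pdk2* at 11.4, 9.9, 10.2, and 12.4 CPM, DKO-moderate replicates at 8, 11.9, 10.3, and 11.7 CPM, and DKO-severe replicates at 12, 12, 13.7, and 15.3 CPM, and its ranges overlapped between WT and DKO-severe (edgeR adjusted p = 0.15). Of the complex itself, *Pdha1*, the catalytic E1 alpha subunit, fell. *Pdha1* had CPM values of 233, 223, 224, and 229 (WT), of 206, 144, 203, and 159 (DKO-moderate), and of 140, 145, 147, and 141 (DKO-severe). The 4 DKO-severe libraries were close together and below all WT libraries (log2 fold change -0.66 ± 0.11, edgeR adjusted p = 0.000315), and DKO-moderate replicates 2 and 4 lay near them while replicates 1 and 3 lay nearer WT. The E1 beta gene *Pdhb* fell less, from 108 ± 9.13 to 90.5 ± 6.52 CPM (log2 fold change -0.26 ± 0.08, edgeR adjusted p = 0.0223), and lost its call without DKO-severe replicates 1 and 2 (edgeR adjusted p = 0.152). The E2 gene *Dlat* was at 47.7 ± 2.2 CPM in WT and 51.3 ± 2.65 CPM in DKO-severe (edgeR adjusted p = 0.247).

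Of the 4 pentose phosphate genes, 3 rose in DKO-severe. WT replicates 1 to 4 held *G6pdx* at 46.5, 46.9, 53.4, and 53.9 CPM, DKO-moderate replicates at 58.2, 67.1, 67.1, and 63.5 CPM, and DKO-severe replicates at 138, 103, 113, and 109 CPM. *G6pdx* (chrX:74409483-74429194, minus strand) encodes glucose 6-phosphate dehydrogenase, the rate-limiting enzyme and a source of NADPH. The groups did not overlap, and *G6pdx* exceeded WT by a log2 fold change of 0.35 ± 0.10 in DKO-moderate (edgeR adjusted p = 0.0298) and 1.21 ± 0.10 in DKO-severe (edgeR adjusted p = 6.3e-06). *Pgd*, the other NADPH-making dehydrogenase, had CPM values of 77.6, 79.5, 81.9, and 74.1 (WT), of 82.7, 96.3, 88.7, and 109 (DKO-moderate), and of 137, 103, 98.2, and 114 (DKO-severe). The transketolase gene *Tkt* had CPM values of 144, 146, 158, and 171 (WT), of 173, 164, 176, and 210 (DKO-moderate), and of 245, 185, 201, and 218 (DKO-severe). Both lay above WT in all 4 DKO-severe libraries (log2 fold change 0.53 ± 0.11 and 0.46 ± 0.11, edgeR adjusted p = 0.00188 and 0.00352), and neither passed in DKO-moderate. With terms for the neutrophil and B cell lists *Pgd* was at 0.23 (edgeR adjusted p = 0.385) and *Tkt* at 0.35 (edgeR adjusted p = 0.234) on the log2 scale, and *G6pdx* kept its call at 1.01 (edgeR adjusted p = 0.00274). *Taldo1*, transaldolase, was at 158 ± 2.65 CPM in WT and 151 ± 12.9 CPM in DKO-severe (edgeR adjusted p = 0.577). The 2 phosphoglucomutase genes, which link glucose 6-phosphate to glycogen and nucleotide sugars, moved in opposite directions. The gene listed as *Pgm1* had CPM values of 34.8, 37.8, 37.5, and 32.1 (WT), of 31.3, 27, 30.4, and 28.7 (DKO-moderate), and of 24.6, 20.3, 26.1, and 25.7 (DKO-severe). The gene listed as *Pgm2* had CPM values of 60.7, 54.7, 44.8, and 52.6 (WT), of 53.9, 72.2, 55.1, and 78.5 (DKO-moderate), and of 78.3, 63.8, 73.1, and 75.6 (DKO-severe). The former fell and the latter rose in DKO-severe (log2 fold change -0.56 ± 0.10 and 0.45 ± 0.13, edgeR adjusted p = 0.000555 and 0.0138). These 2 symbols were exchanged between mouse loci in past nomenclature, and the files, which use older symbols, do not settle which locus each row counts.

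The hypoxia factor itself was among the genes that rose. *Hif1a* had CPM values of 155, 171, 190, and 230 (WT), of 439, 964, 517, and 744 (DKO-moderate), and of 1597, 858, 1357, and 1615 (DKO-severe). *Hif1a* (chr12:73901375-73947530, plus strand) encodes the subunit of HIF-1 that oxygen controls at the protein level, which RNA-seq does not measure. All 8 DKO libraries lay above WT, and the level was 7.27-fold higher in DKO-severe (log2 fold change 2.86 ± 0.27, edgeR adjusted p = 1.19e-05) and 3.57-fold higher in DKO-moderate (log2 fold change 1.84 ± 0.26, edgeR adjusted p = 0.000935). Without DKO-severe replicates 1 and 2 the log2 fold change in DKO-severe was 3.03. Replicates 3 and 4 were far below replicates 1 and 2 in summed neutrophil genes (46.7 and 28 CPM) but above all WT libraries (12.2 to 18.7 CPM). These 2 replicates were also above most WT libraries in monocyte, plasma cell, and B cell genes. A GENCODE transcript on the same strand overlaps the gene, and how reads in the overlap were treated in counting is not stated. Such overlaps were also present for *Slc2a1*, *Slc2a3*, *Pfkm*, *Pfkfb3*, *Slc16a1*, and *Tkt*. *Egln3*, the prolyl hydroxylase that marks HIF-1 alpha for degradation and is itself a target, had CPM values of 7.64, 10.2, 7.79, and 12.7 (WT), of 13.6, 39.2, 17.5, and 35.4 (DKO-moderate), and of 15.6, 27.5, 16, and 16 (DKO-severe). It was higher than WT in both DKO groups (DKO-severe, edgeR adjusted p = 0.0291, and DKO-moderate, edgeR adjusted p = 0.0123). However, the log2 fold change in DKO-severe, 0.97 ± 0.34, was 0.76 without replicate 2 (edgeR adjusted p = 0.0816). The mitophagy gene *Bnip3*, another known target, had CPM values of 8.48, 5.9, 7.73, and 6.83 (WT), of 5.61, 7.34, 6.61, and 6.07 (DKO-moderate), and of 4.83, 5.36, 4.95, and 5.77 (DKO-severe). It fell in DKO-severe (log2 fold change -0.47 ± 0.16, edgeR adjusted p = 0.0286), the call was lost without DKO-severe replicates 1 and 2 (edgeR adjusted p = 0.158), and 46.25% of its windows are shared with other genes. The 2 genes listed as targets had opposite directions in DKO-severe, and these calls were lost in 7 (*Egln3*) and 12 (*Bnip3*) of 26 alternatives.

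**Figure D3:**
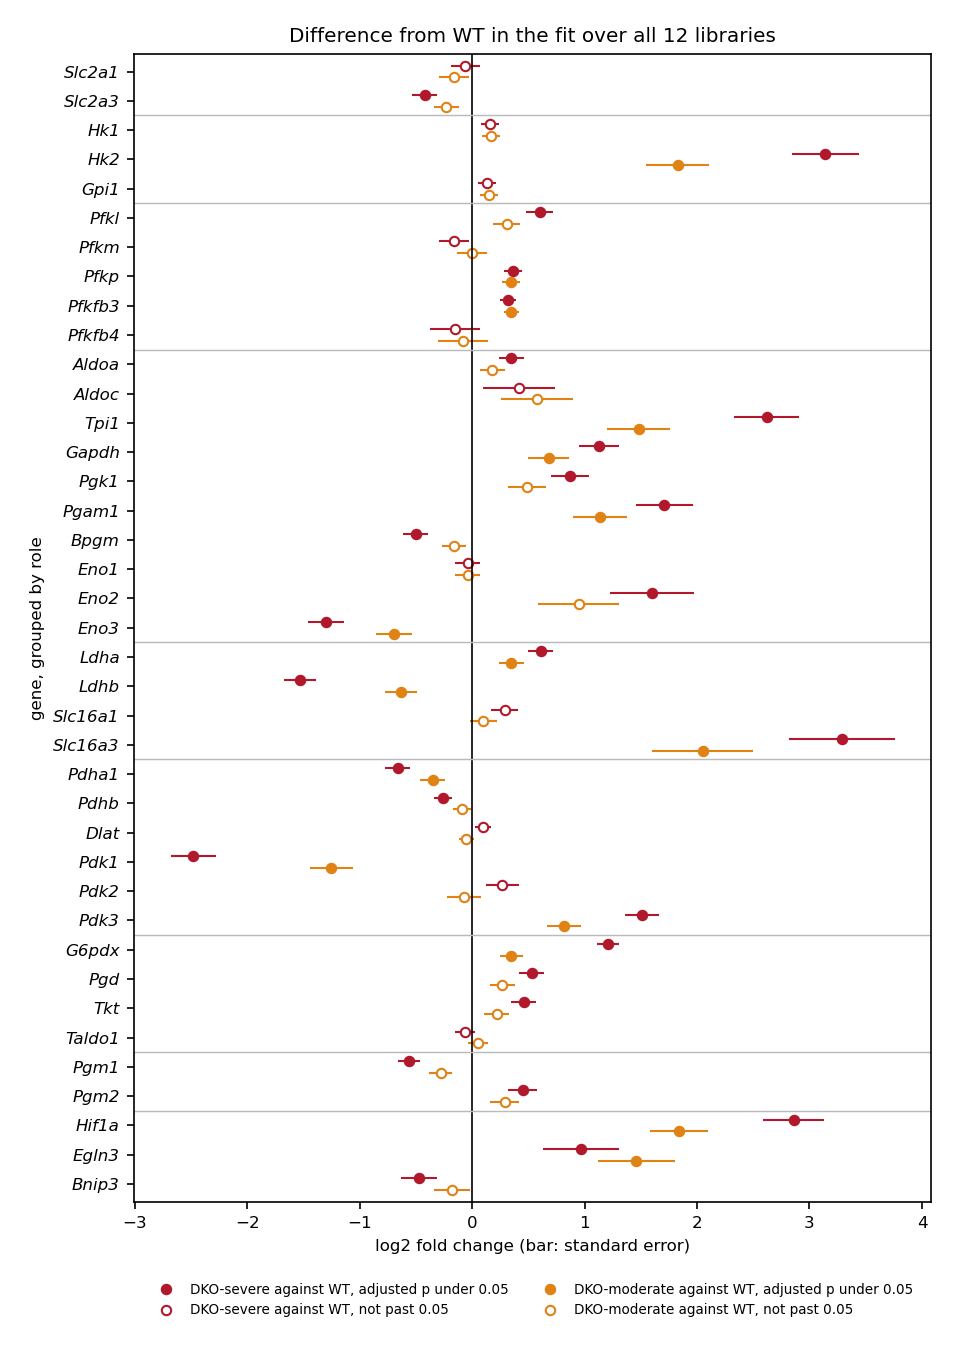
Log2 fold change ± SE of each of the 39 genes in DKO-severe against WT (red) and DKO-moderate against WT (orange), both from the fit over all 12 libraries, with filled points for an edgeR adjusted p under 0.05. *Slc16a3*, *Hk2*, *Hif1a*, and *Tpi1* lie farthest to the right and *Pdk1*, *Ldhb*, and *Eno3* farthest to the left in DKO-severe, and the comparisons share the WT libraries.

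Isozyme makeup was described from CPM per kilobase of exon, as the share of each gene in its family. Exon length was that of all annotated exons of a gene merged, which can exceed the length of the transcript made. *Eno1* had 5379 bases by this measure, with 1953 windows of 75 bases in its longest transcript. The shares, levels, and ranks below depend on this choice of length. These shares carry no test. Of the 8 families, the mean shares shifted most in the pyruvate dehydrogenase kinases, where *Pdk1* held 86.5, 85.5, 80.1, and 82% (WT), 65.9, 50.3, 65.7, and 51.1% (DKO-moderate), and 20.2, 34.4, 29.3, and 29% (DKO-severe). *Pdk3* held 11.9% ± 2.35 (SD, n = 4) of the WT signal, 34.5% ± 7.23 of that of DKO-moderate, and 61.6% ± 6.69 of that of DKO-severe. The share of *Pdk1* was below that of *Pdk3* in all 4 DKO-severe libraries and above it in the other 8. Among lactate transporters, the share of *Slc16a3* went from 5.93% ± 1.92 in WT to 19.7% ± 9.03 in DKO-moderate and 33.2% ± 6.89 in DKO-severe, so that *Slc16a1* stayed the major form. *Hk2* went from 1.79% ± 0.644 of the 2 hexokinases in WT to 5.45% ± 1.47 and 12.6% ± 2.32, with *Hk1* in the majority in each library. *Ldhb* went from 13.4% ± 0.753 in WT to 7.37% ± 1.32 and 3.43% ± 0.805. *Pfkm* went from 23.4% ± 1.45 to 16.3% ± 1.66 of phosphofructokinase and *Eno3* from 5.36% ± 0.366 to 2.35% ± 0.673 of enolase. Reads left out at shared sequence could distort these shares. Windows were shared for 65.44% of *Eno1* and none of *Eno3*, so the share of *Eno3* could be overstated. They were shared for 16.75% of *Ldhb* and 5.23% of *Ldha*, so the share of *Ldhb* could be understated. Between *Slc2a1* and *Slc2a3* the shares shifted little (*Slc2a1*, 63.2% ± 1.8 in WT and 68.6% ± 1.69 in DKO-severe). This family leaves out *Slc2a6*, with means of 0.625 CPM in WT and 32 CPM in DKO-severe. *Aldoa* was 99.4% ± 0.0788 of aldolase in WT and 99.4% ± 0.232 in DKO-severe.

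**Figure D4:**
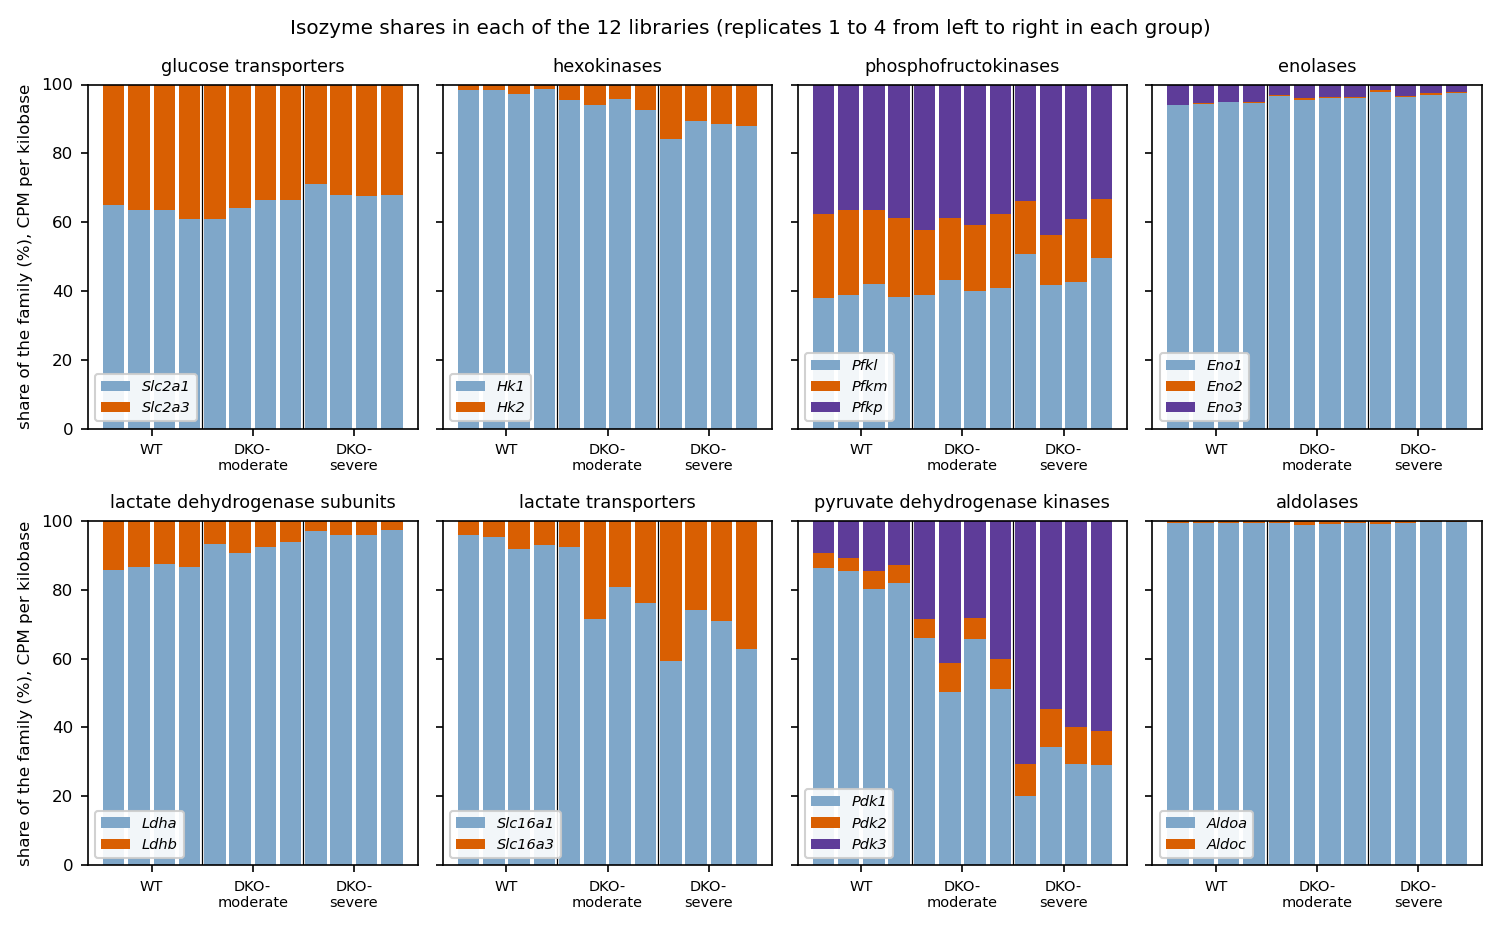
Share of each isozyme in its family (%), computed from CPM per kilobase of exon, in each of the 12 libraries, with replicates 1 to 4 from left to right in each group and lines between groups. In the pyruvate dehydrogenase kinases *Pdk1* holds most of the family in WT and *Pdk3* in DKO-severe, while *Hk1*, *Eno1*, *Ldha*, *Slc16a1*, and *Aldoa* remain the major form in each library.

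On the same scale, the order of levels among the 39 genes changed. In WT the genes with the highest mean were *Ldha* (164 CPM per kilobase), *Gapdh* (158), *Aldoa* (158), and *Eno1* (138). In DKO-severe they were *Gapdh* (347), *Ldha* (251), *Hif1a* (230), and *Aldoa* (201). The levels of *Gapdh*, *Eno1*, *Pgk1*, and *Pgam1* could be understated by the reads left out at shared sequence, so their ranks are uncertain. The order within a group also depends on the exon lengths used, as stated above. Of the 39, *Pdk1* went from rank 8 in WT to rank 23 in DKO-severe, *Tpi1* from rank 16 to rank 7, and *Hif1a* from rank 10 to rank 3, while *Hk2* (rank 38 and 34) and *Slc16a3* (rank 37 and 33) stayed among the scarcest despite their fold changes. Together the 39 genes took 0.5% to 0.538% of reads in WT, 0.554% to 0.758% in DKO-moderate, and 0.727% to 0.965% in DKO-severe. This sum includes *Hif1a*, with means of 187 CPM in WT and 1357 CPM in DKO-severe, and *Gapdh*, with 655 and 1433 CPM. It does not describe the enzymes as a set.

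To ask which genes differed between the severity groups, DKO-severe was compared with DKO-moderate. Of the 39 genes, 9 passed, against 20.1% of all genes. The 5 that were higher (9.41% of all genes) were *Hk2* (log2 fold change 1.31 ± 0.27), *Tpi1* (1.13 ± 0.28), *Hif1a* (1.03 ± 0.26), *G6pdx* (0.86 ± 0.10), and *Pdk3* (0.69 ± 0.15), with edgeR adjusted p from 0.00165 to 0.0173. The 4 that were lower (10.7% of all genes) were *Pdk1* (-1.24 ± 0.19), *Ldhb* (-0.90 ± 0.14), *Eno3* (-0.61 ± 0.16), and *Bpgm* (-0.34 ± 0.11), with edgeR adjusted p from 0.00335 to 0.048. *Bpgm* lost this call in 23 of 26 alternatives and *Eno3* in 8, among them those without DKO-moderate replicate 3 and without DKO-severe replicate 1, 3, or 4. *Hif1a* and *Tpi1* lost it in 3 each, and the other 5 in 1, the terms for the neutrophil and B cell lists. Ranges did not overlap in 10 of 39 genes, 5 above and 5 below, against 21.3% of all genes. With terms for the neutrophil and B cell lists none of the 39 passed in edgeR, with 13 at an unadjusted p under 0.05, and 1.23% of all genes passed. The log2 fold change of *G6pdx* was 0.68 with these terms (edgeR adjusted p = 0.0547) and that of *Ldhb* -1.03 (edgeR adjusted p = 0.0622). Without DKO-severe replicates 1 and 2 there were 9 again, 8 of them the same (13.6% of all genes). DESeq2 gave 18 of 39 (26% of all genes) and limma voom 21 (38.2% of all genes), and scaling by library size alone gave 7 higher and 2 lower in edgeR (18.2% of all genes).

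DKO-moderate was not uniform in these genes. Replicates 2 and 4, the libraries with more *Xist* than *Ddx3y* reads, both lay above replicates 1 and 3 in 15 of the 39 genes, among them *Hk2*, *Tpi1*, *Gapdh*, *Slc16a3*, *Pdk3*, and *Hif1a*, and both below in 5 (*Eno1*, *Pdha1*, *Dlat*, *Pdk1*, and *Pgm1*). This share, 20 of 39, was close to that of all genes given above. *Tpi1* was at 191 and 202 CPM in replicates 2 and 4 and at 84.2 and 110 CPM in replicates 1 and 3. *Tet3* was at 109 and 90.3 CPM in replicates 2 and 4 and at 168 and 185 CPM in replicates 1 and 3. Without DKO-moderate replicates 2 and 4, 6 of 39 genes passed in DKO-moderate against WT (6.57% of all genes), all 6 among the 16 called with them. These were *Hk2* (log2 fold change 1.43, edgeR adjusted p = 0.0196), *Pfkfb3*, *Ldhb*, *Pdk1*, *Pdk3*, and *Hif1a* (log2 fold change 1.34, edgeR adjusted p = 0.0104). A term for *Xist* or *Ddx3y* in the model left 28 genes past the threshold in DKO-severe against WT (51.7% of all genes). It left 15 in DKO-moderate against WT (13.6%) and 9 in DKO-severe against DKO-moderate (19.2%). Whether sex or the stage of disease moves with the split was not tested.

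The remaining genes of these pathways, matched by symbol, also moved in both directions. Of 26 other glycolysis and pyruvate genes tested, 11 rose and 6 fell in DKO-severe against WT. This count and those of the lists below are to be read against 26.6% of all genes called higher and 25.9% called lower. *Slc2a6*, a hexose transporter of lysosomes, rose (log2 fold change 5.66 ± 0.76, edgeR adjusted p = 9.9e-05), with levels of 0.144 to 1.32 CPM in WT and 15.6 to 42.6 CPM in DKO-severe. *Ldhd*, the mitochondrial D-lactate dehydrogenase, fell (log2 fold change -4.0 ± 0.60, edgeR adjusted p = 0.00018), with levels of 4.83 to 9.42 CPM in WT and 0.0324 to 0.7 CPM in DKO-severe. The hexokinase gene *Hk3* rose (log2 fold change 2.35 ± 0.67, edgeR adjusted p = 0.0111), but its DKO-severe levels were 14.1 and 8.19 CPM in the replicates high in neutrophil genes and 1.57 and 1.32 CPM in replicates 3 and 4, against 0.738 to 1.98 CPM in WT. The pyruvate kinase gene, listed as *Pkm2* and named here after its values were seen, rose (WT, 755 to 828 CPM, and DKO-severe, 1027 to 1574 CPM, log2 fold change 0.80 ± 0.12, edgeR adjusted p = 0.000231). The counts are per gene and do not separate the M1 and M2 forms. Of 10 other pentose phosphate genes, 3 rose and 3 fell, led by *Shpk* (log2 fold change -0.68 ± 0.15), *Dera* (0.60 ± 0.10), and *H6pd* (-0.57 ± 0.14), with edgeR adjusted p from 0.000349 to 0.00431. Of 13 glycogen and hexose phosphate genes, 3 rose and 4 fell. The liver glycogen phosphorylase *Pygl* (log2 fold change 3.45 ± 1.08, edgeR adjusted p = 0.0184) was at 30.8 and 15.4 CPM in DKO-severe replicates 1 and 2 and 2.4 and 1.41 CPM in replicates 3 and 4. The muscle form *Pygm* (log2 fold change -2.04 ± 0.29, edgeR adjusted p = 0.000119) and *Pgm2l1* (-1.43 ± 0.35, edgeR adjusted p = 0.00503) fell. Of 20 other hypoxia genes, 3 rose and 4 fell. *Bhlhe40*, a repressor induced by hypoxia and by T cell activation, rose (log2 fold change 3.82 ± 0.46, edgeR adjusted p = 4.42e-05). *Epas1*, which encodes HIF-2 alpha, fell (log2 fold change -1.70 ± 0.32, edgeR adjusted p = 0.000816), the opposite direction to *Hif1a*, as did *Kdm3a* (-0.47 ± 0.11, edgeR adjusted p = 0.00384).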

How the data were processed

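RNA-seq of sorted CD4+ T cells gave 12 libraries, grouped by their labels into WT, DKO-moderate, and DKO-severe (4 each). The authors aligned reads to mm10 with STAR (2.7.11), kept reads with 1 position, and deposited raw counts per gene from htseq-count, counted by strand. The annotation used for counting is not given in the sources used here, and older symbols in the files were matched by name. Counts were fitted in edgeR (4.0.16, R 4.3.3; quasi-likelihood test, TMM, 1 fit over all 12 libraries), over 16035 genes with at least 10 reads over the libraries of 1 or more groups, with Benjamini-Hochberg adjusted p under 0.05. Standard errors are the absolute log2 fold change over the square root of F. Libraries held 29254260 to 42133536 reads on genes, with 18.53% to 23.73% of counted reads on no gene and left out. Genes named with values in each library were those of the isozyme families and up to 3 genes with the largest called change per role, and for the other lists up to 3 genes reaching a group mean of 5 CPM. The genes and lists were chosen with earlier results of these data known. The libraries of a group were taken as separate mice, as the study's text speaks of mice, although the labels do not number them, and no 2 libraries of a group agreed within sampling noise. Replicate numbers did not pair libraries. Alternatives, with DESeq2 (1.42.0) and limma (3.58.1) among them, are given in the closing section. Gene positions are from GENCODE M21 (GRCm38), and promoters are from RefSeq (GRCm38.p6). The code was tested on simulated data.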

Additional observations from a re-analysis of the deposited data

Results flagged for a closer look

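In 4 of 117 sets of 4 libraries (39 genes in 3 groups), 1 library lay far from the other 3 by Dixon's test, where 5.8 are expected by chance at 1 in 20. *Slc2a3* was lowest in WT replicate 3 at 56.4 CPM, against 65.8 to 66.4 CPM in the other WT libraries. *Eno2* was highest in DKO-moderate replicate 2 at 3.75 CPM, against 1.44 to 1.64 CPM. *Ldha* was highest in DKO-moderate replicate 4 at 803 CPM, against 637 to 661 CPM. *Egln3* was highest in DKO-severe replicate 2 at 27.5 CPM, against 15.6 to 16 CPM. The flags fell in 4 different libraries, 1 each.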

How the results depend on the processing

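Of 39 genes, 28, 16, and 9 passed in DKO-severe against WT, DKO-moderate against WT, and DKO-severe against DKO-moderate. DKO-severe against WT gave 15 with terms for the neutrophil and B cell lists (19.5% of all genes). It gave 12 with a log2 fold change of at least 1 required (27.3% of all genes). DKO-moderate against WT gave 9 at an adjusted p under 0.01 (7.1% of all genes). It gave 7 with a log2 fold change of at least 1 required (9.28%) and 6 without DKO-moderate replicates 2 and 4 (6.57%). DKO-severe against DKO-moderate gave 18 with DESeq2 (26% of all genes) and 21 with limma voom (38.2%). It gave 0 with terms for the lists in edgeR (1.23% of all genes), with 13 of the 39 at an unadjusted p under 0.05. No other tool was run with these terms. It gave 5 at an adjusted p under 0.01 (5.84%) and 4 with a log2 fold change of at least 1 required (8.74%). Without DKO-moderate replicates 2 and 4 it gave 19 (29.3% of all genes). The cause of these shifts was not tested. Leaving out 1 library at a time gave 25 to 29, 12 to 17, and 6 to 14. The shares of all genes called ranged over 45.4% to 56.2%, 10.2% to 18.5%, and 10.2% to 22.8%. The lowest count of the 39 in the last comparison, 6, was without DKO-moderate replicate 3. The highest, 14, came without DKO-moderate replicate 4 and without DKO-severe replicate 2. With the replicate block, 27, 13, and 7 passed (48.6%, 13.7%, and 14.5% of all genes). Same-numbered libraries of different groups had a median correlation of deviations of -0.034 (-0.272 to 0.208 over 12 pairs, 2 over 0.1), and 2 libraries correlated best with their own number, so the numbers were not read as pairs. Without DKO-severe replicates 1 and 2, 25, 16, and 9 passed (42.3%, 18.4%, and 13.6% of all genes). Without these and WT replicate 3, 24, 15, and 9 passed (43%, 16.5%, and 13.2% of all genes). Over 26 alternatives for 117 results on single genes, 133 lost a call, 93 gained one, and 0 called results changed direction. *Pdhb* in DKO-severe against WT lost its call in 10 of the 26. The libraries left out by hand and the term for *Xist* or *Ddx3y* were chosen after seeing the data.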
